A study of Homo sapiens with 4 samples.

Results

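Integrins are the main receptors with which cells hold on to the extracellular matrix, and laminins are the trimeric proteins that build the basement membrane to which many integrins bind. Their genes were described in 786-O, a long-used human cell line derived from a clear cell carcinoma of the kidney that lacks functional VHL. Cells stably carrying a PRDM16 lentivirus (2 libraries) were compared with cells carrying a control lentiviral vector (2 libraries). The study asks what forced PRDM16 expression does to gene expression. PRDM16 is a zinc finger protein of the PRDM family, known for its role in brown fat. All cells came from this 1 line, both groups carry a vector, and no separate cultures are named for the replicates, so a p-value here reflects how far these libraries differ among themselves, and that spread may be technical. Members were chosen by gene symbol among the 56753 loci of the table, as any symbol of an integrin alpha, an integrin beta or a laminin alpha, beta or gamma chain. The 37 genes described are 18 integrin alpha, 8 integrin beta and 11 laminin genes. Of these, 32 stand at loci that name a single gene. The other 5 (ITGA1, ITGB3, ITGAD, LAMA5 and LAMB3) share a locus with other names, so each of those values is a sum over the locus.

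An integrin is a pair of 1 alpha and 1 beta chain, and the pair decides the ligand. ITGB1 pairs with many alpha chains, of which ITGA3 and ITGA6 form laminin receptors, ITGA1 and ITGA2 collagen receptors and ITGA5 the classical fibronectin receptor. ITGAV pairs with several beta chains to bind proteins with the RGD motif, and with ITGB6 or ITGB8 it activates latent TGF-beta. A laminin is a trimer of 1 alpha, 1 beta and 1 gamma chain. LAMA3 and LAMB3 belong to a trimer that anchors epithelia, and trimers with LAMC1 and LAMB1 or LAMB2 are common in basement membranes, including those of the kidney.

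PRDM16 itself had 1226 and 1146 FPKM in the PRDM16 libraries, against 0.0157 and 0.234 FPKM in the control vector libraries, as the labels state. FPKM counts fragments per kilobase of a transcript after scaling for library size. The renal marker PAX8 had 190.3 and 169 FPKM in PRDM16 libraries and 202 and 208 FPKM in control vector libraries, and the epithelial keratin KRT8 was above 169 FPKM in every library. Of 8 leukocyte markers, 2 (CD3E and CD3D) were listed at 0 in all 4 libraries and 7 were under 1 FPKM in all of them. The summed FPKM of the leukocyte list was 3.32 and 3.03 in PRDM16 libraries and 3.62 and 2.31 in control vector libraries, most of it CSF1R. Summed over 6 endothelial markers, of which 5 were under 1 FPKM throughout, the level was 2.69 and 3.06 FPKM in PRDM16 libraries and 1.99 and 2.49 FPKM in control vector libraries. The platelet (4 genes) and muscle (4 genes) lists stayed under 1 FPKM in sum. The 4 keratinocyte markers summed to between 16.4 and 18.8 FPKM, almost all of it KRT10, and the 6 fibroblast markers to 42.7 and 44.5 FPKM in PRDM16 libraries and 37.0 and 35.7 FPKM in control vector libraries, nearly all from a locus that names PDGFRA with 3 other genes. What part these markers have in the results was not tested.

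None of the integrin and laminin genes described here passed the test. Of the 37 members, 21 had a mean of at least 1 FPKM over the 4 libraries and were tested with limma on log2(FPKM + 1), with p adjusted over all 13246 loci tested. None had an adjusted p under 0.05 (limma adjusted p from 0.689 to 0.980), where 0.0226% of all loci did, 0.0151% higher and 0.00755% lower. At an unadjusted p under 0.05 there were 2 members, LAMA3 and LAMB2, both lower with PRDM16, where 3.7% of all loci were lower and 2.42% higher by that rule. Among all tested loci 3 were called. A two-sided exact permutation test of 2 libraries against 2 cannot go below p = 0.333.

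Most tested members had a lower mean in PRDM16 cells. A lower mean FPKM was seen for 14 and a higher one for 7 of 21, where 49.7% of all loci had a lower and 50.3% a higher mean. Both PRDM16 libraries lay below both control vector libraries for 6 members (28.6%, against 20.3% of all loci) and above them for 2 (9.52%, against 21.1% of all loci). The median log2 change over the 21 was -0.11, against 0.00399 over all loci. All 6 tested integrin beta genes, 3 of 8 integrin alpha genes and 5 of 7 laminin genes were among the lower ones. Control vector replicate 2 was the highest of the 4 libraries for 12 of the 21 members, which it was for 33.9% of all loci. Without that library 11 members were lower and 10 higher, at a median of -0.04. The plot of deviations by library shows this pattern.

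**Figure D1:**
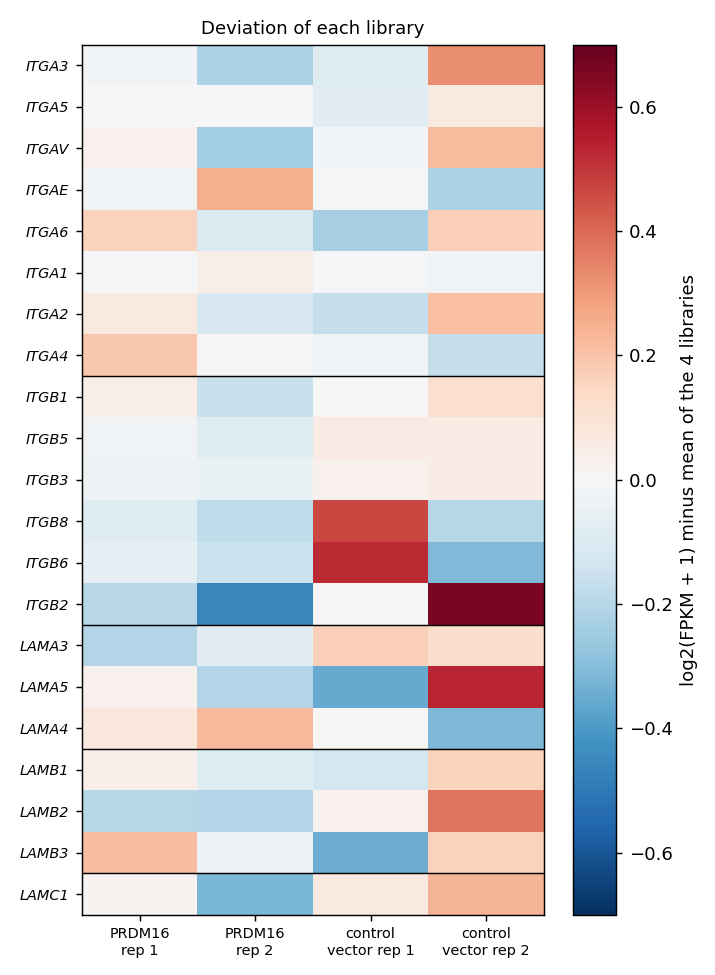
Deviation of each library from the mean of the 4 libraries, as log2(FPKM + 1), for 21 tested integrin and laminin genes (rows, grouped as integrin alpha, integrin beta, laminin alpha, beta and gamma) with the PRDM16 libraries in the left columns. Control vector replicate 2 is the highest library for 12 of the 21 genes, and ITGB6 and ITGB8 are highest in control vector replicate 1.

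A few integrin genes carried most of the signal. ITGB1, ITGA3 and ITGB5 together made up 68.3% and 67.4% of the summed FPKM of the 37 members in PRDM16 libraries and 68.1% and 68.7% in control vector libraries. ITGA3 alone held 69.6% and 67.6% of the integrin alpha sum in PRDM16 libraries, against 69.9% and 73.5% in control vector libraries. ITGB1 held 65.4% and 63.0% of the integrin beta sum in PRDM16 libraries, against 62.7% and 65.2% in control vector libraries. Since FPKM are per length, levels of different genes can be set side by side. Among the tested alpha genes the order by mean was ITGA3, ITGA5, ITGAV, ITGAE, ITGA6, ITGA1, ITGA2 and ITGA4, with library ranges that overlapped only between ITGA5 and ITGAV. The tested beta genes ran ITGB1, ITGB5, ITGB3, ITGB8, ITGB6 and ITGB2, with no overlap between neighbours.

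**Figure D2:**
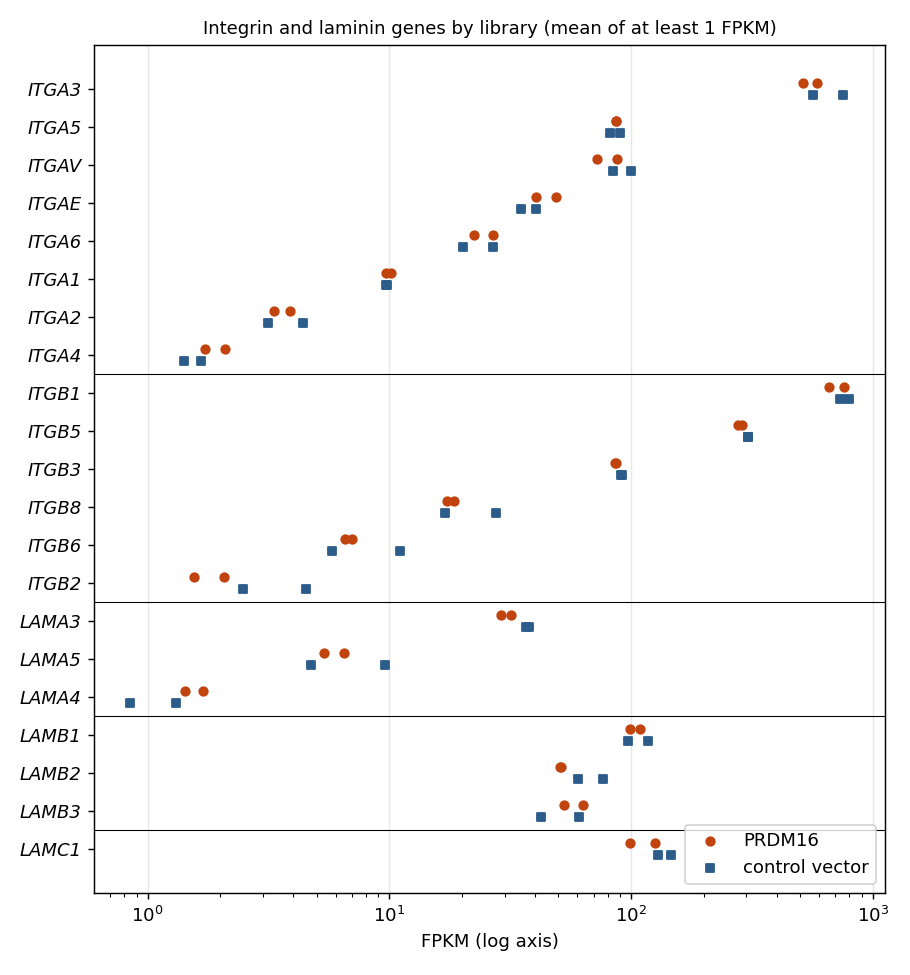
FPKM (log axis) of 21 tested integrin and laminin genes in each library, with PRDM16 libraries as circles above control vector libraries as squares. ITGB1 and ITGA3 lie highest, between 514 and 798 FPKM, and LAMA4 and ITGA4 lowest.

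Of the integrin beta chains, ITGB1 (chromosome 10, 32900319 to 33005792, minus strand of hg38) was the most abundant, with 761 and 660.2 FPKM in PRDM16 libraries and 734 and 798 FPKM in control vector libraries. The groups overlapped, at a log2 change of -0.11 (SE 0.11, limma adjusted p = 0.731) and a 95% interval from -0.39 to 0.17. Without PRDM16 replicate 2 the change of ITGB1 was -0.01. ITGB5, which pairs with ITGAV as a vitronectin receptor, had 287 and 276 FPKM in PRDM16 libraries, against 304 and 304 FPKM in control vector libraries. Both PRDM16 libraries were the lower ones, by a log2 change of -0.11 (SE 0.08, limma adjusted p = 0.690). ITGB3, the beta chain of the other vitronectin receptor and of the platelet fibrinogen receptor, had 86.3 and 85.8 FPKM in PRDM16 libraries and 90.6 and 91.8 FPKM in control vector libraries. It too did not overlap between groups, at a log2 change of -0.08 (SE 0.08). Its locus also names EFCAB13, and in GENCODE release 29 a read-through gene shares 51.6% of the exonic bases of ITGB3, so the value cannot be given to ITGB3 alone.

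The beta chains that activate latent TGF-beta were set apart by 1 library. ITGB8 had 18.6 and 17.4 FPKM in PRDM16 libraries and 27.7 and 17.1 FPKM in control vector libraries. ITGB6, an epithelial chain induced in many carcinomas, had 7.02 and 6.54 FPKM in PRDM16 libraries and 11.05 and 5.77 FPKM in control vector libraries. In both genes control vector replicate 1 was the high library and control vector replicate 2 the lowest of the 4, so the groups overlapped. Without control vector replicate 1 the log2 change was 0.07 for ITGB8 and 0.20 for ITGB6, against -0.26 and -0.22 with all libraries. The ligand they act on, TGFB1, had 74.9 and 69.7 FPKM in PRDM16 libraries and 74.6 and 75.6 FPKM in control vector libraries. Their alpha partner ITGAV (chromosome 2, 186590065 to 186680901) had 87.4 and 72.4 FPKM in PRDM16 libraries and 84.5 and 99.9 FPKM in control vector libraries, a log2 change of -0.21 (SE 0.14, limma adjusted p = 0.690) with overlapping groups. Leaving out PRDM16 replicate 2 gave -0.07 for ITGAV, and leaving out control vector replicate 2 gave -0.09.

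Among the alpha chains of laminin receptors, ITGA3 (chromosome 17, 50055968 to 50090481, plus strand) had 590.3 and 514 FPKM in PRDM16 libraries and 566 and 749.8 FPKM in control vector libraries. Control vector replicate 2 stood above the other 3, and the log2 change of -0.24 (SE 0.17, limma adjusted p = 0.690) was -0.04 without it and -0.14 without PRDM16 replicate 2. ITGA6, which pairs with ITGB1 or with ITGB4 in hemidesmosomes, had 26.9 and 22.3 FPKM in PRDM16 libraries and 20.2 and 26.9 FPKM in control vector libraries. The highest library of each group was level, and the log2 change was 0.07 (95% interval from -0.40 to 0.54). The remaining laminin-binding chain, ITGA7, known from muscle, stayed below 0.5 FPKM, at 0.410 and 0.335 FPKM in PRDM16 libraries and 0.461 and 0.433 FPKM in control vector libraries.

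ITGA5, the fibronectin receptor chain, had 86.3 and 86.5 FPKM in PRDM16 libraries and 81.9 and 90.2 FPKM in control vector libraries, so both PRDM16 values lay between the control values. The log2 change of ITGA5 was 0.01 (SE 0.09), with a 95% interval from -0.24 to 0.25. The collagen receptor chain ITGA2 had 3.90 and 3.33 FPKM in PRDM16 libraries and 3.15 and 4.39 FPKM in control vector libraries, again overlapping (log2 change -0.04). For ITGA1, the other collagen receptor chain, the locus had 9.72 and 10.1 FPKM in PRDM16 libraries and 9.74 and 9.66 FPKM in control vector libraries. That locus also names PELO, a ribosome rescue gene that lies within ITGA1, so the share of ITGA1 in it is unknown. ITGA10 and ITGA11, which also bind collagen, were below 0.31 FPKM in every library.

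ITGAE and ITGA4, chains best known from lymphocytes, were measurable. ITGAE (chromosome 17, 3714628 to 3801243, minus strand) had 40.5 and 49.0 FPKM in PRDM16 libraries and 40.6 and 35.0 FPKM in control vector libraries. Its groups overlapped narrowly, and the log2 change was 0.24 (SE 0.14, limma adjusted p = 0.689). With PRDM16 replicate 2 left out it was 0.10, and with control vector replicate 2 left out it was 0.13. The mitotic kinase gene HASPIN lies inside ITGAE on the opposite strand and shares 6.41% of its exonic bases. Whether the libraries kept strand is not given in the sources used here, so antisense reads cannot be told apart. ITGA4 had 2.09 and 1.72 FPKM in PRDM16 libraries and 1.66 and 1.41 FPKM in control vector libraries, both PRDM16 libraries being the higher ones (log2 change 0.19, SE 0.16, limma adjusted p = 0.702). Without PRDM16 replicate 1 the ITGA4 change was 0.10, and without control vector replicate 2 it was 0.12. VCAM1, a ligand of ITGA4 with ITGB1, had 95.2 and 82.8 FPKM in PRDM16 libraries and 82.5 and 115 FPKM in control vector libraries.

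The beta 2 integrins, which leukocytes use for adhesion and phagocytosis, had low values here. ITGB2 (chromosome 21, 44885953 to 44931989, minus strand) had 2.06 and 1.56 FPKM in PRDM16 libraries, against 2.49 and 4.53 FPKM in control vector libraries, 1.94-fold lower by the means, and the groups did not overlap. Among the 21 tested members it had the largest log2 change in size, -0.65 (SE 0.27, limma adjusted p = 0.689), which was -0.32 without control vector replicate 2. ITGAX, an alpha partner of ITGB2 found on dendritic cells and macrophages, had 0.296 and 0.369 FPKM in PRDM16 libraries and 0.684 and 0.991 FPKM in control vector libraries. ITGAM, the partner that marks myeloid cells, had 0.116 and 0.0659 FPKM in PRDM16 libraries and 0.243 and 0.275 FPKM in control vector libraries. Both PRDM16 libraries were the lower ones for ITGAX and ITGAM. ITGAL, the lymphocyte partner, was listed at 0 in 3 of 4 libraries and at 0.00737 FPKM in control vector replicate 1. ITGAD did not follow, at 0.138 and 0.203 FPKM in PRDM16 libraries and 0.207 and 0.140 FPKM in control vector libraries. ITGAM, ITGAX and ITGAD lie next to each other on chromosome 16 between 31259967 and 31426505. In a fit without the filter on low values the unadjusted limma p was 0.00970 for ITGAM and 0.0239 for ITGAX, and the adjusted p was 0.706 for ITGAM and 0.745 for ITGAX. The pan-leukocyte marker PTPRC was at most 0.0126 FPKM in any library. SPI1, a myeloid transcription factor, was listed at 0 in all but control vector replicate 1, where it had 0.0583 FPKM. Among other myeloid markers, CSF1R had 3.04 and 2.83 FPKM in PRDM16 libraries and 3.31 and 2.11 FPKM in control vector libraries. CD14 had 0.268 and 0.143 FPKM in PRDM16 libraries and 0.163 and 0.144 FPKM in control vector libraries. The groups overlapped for CSF1R and CD14.

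Altogether 16 members had a mean under 1 FPKM and were not tested. ITGA8 and LAMC3 were listed at 0 in all 4 libraries, which in this table may also be a failed estimate. The highest of the 16 by mean was ITGB4, the hemidesmosome chain, with 0.896 and 0.429 FPKM in PRDM16 libraries and 0.608 and 1.82 FPKM in control vector libraries. ITGB7, the partner of ITGAE and ITGA4 in gut lymphocytes, had 0.362 and 0.673 FPKM in PRDM16 libraries and 1.08 and 0.985 FPKM in control vector libraries. Its groups did not overlap, though 42.1% of its annotated exonic bases also belong to ZNF740 on the opposite strand. LAMA2, the chain of muscle basement membrane, had 0.643 and 0.603 FPKM in PRDM16 libraries and 0.842 and 0.610 FPKM in control vector libraries. Of the 16, 4 (ITGA7, ITGAM, ITGAX and ITGB7) lay lower in both PRDM16 libraries and 1 (ITGA11) higher. Among all 15089 loci under that mean and above 0 in at least 1 library, of which 14 are members, 15.4% lay lower and 10.97% higher in this way. The plot of members under 1 FPKM shows how close to 0 these values lie.

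**Figure D3:**
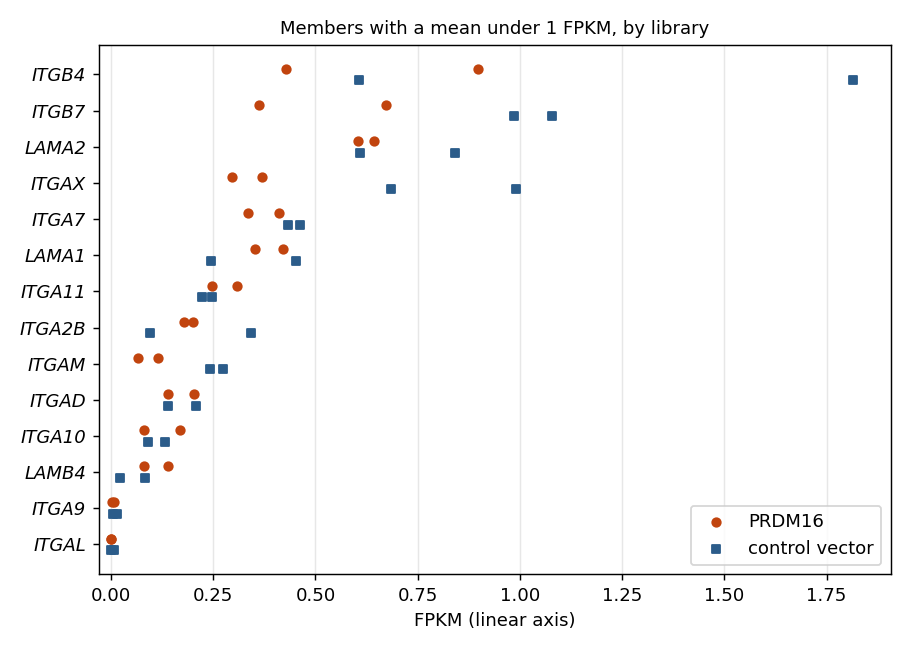
FPKM (linear axis) in each library of the 14 members with a mean under 1 FPKM that were above 0 in at least 1 library, PRDM16 libraries as circles above control vector libraries as squares. ITGAX, ITGAM and ITGB7 have both PRDM16 libraries to the left of both control vector libraries.

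Of the epithelial anchoring chains, LAMA3 separated the groups and LAMB3 did not, and neither passed the test. LAMA3, an alpha chain (chromosome 18, 23689443 to 23956222, plus strand), had 28.99 and 31.8 FPKM in PRDM16 libraries, against 37.8 and 36.7 FPKM in control vector libraries. Both PRDM16 libraries were lower, 1.23-fold on the means, at a log2 change of -0.29 (SE 0.10, unadjusted p = 0.0332, limma adjusted p = 0.689). The smallest and largest log2 change of LAMA3 with 1 library left out were -0.35 and -0.22. LAMB3, its beta partner, had 63.0 and 52.8 FPKM in PRDM16 libraries and 42.3 and 60.6 FPKM in control vector libraries, a log2 change of 0.18 (SE 0.20, limma adjusted p = 0.754). The groups overlapped for LAMB3, and its change turned to -0.07 with control vector replicate 1 left out and was 0.44 with control vector replicate 2 left out. By level LAMA3 lay below LAMB3 in every library, and it held 76.3% and 79.9% of the laminin alpha sum in PRDM16 libraries, against 84.1% and 76.1% in control vector libraries.

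The start regions of 4 laminin genes are printed. LAMA3, LAMB2 and LAMC1 had the smallest p among the laminin genes described here, and LAMB3 is the beta partner of LAMA3. RefSeq's promoter table on GRCh38.p14 matched 26 of the 37 members, several with more than 1 start, and holds the 250 bases before each start. Letters in capitals mark matches on either strand to TGANTCA, the motif bound by AP-1, or to GGGCGG, the GC box bound by SP1, motifs that share no letters where they meet and so cannot overlap. The windows are chr18:23872770-23873019 (plus strand, an internal start of LAMA3), chr1:209651375-209651624 (minus strand, 1 of 3 starts listed for LAMB3), chr3:49133051-49133300 (minus strand, LAMB2) and chr1:183023170-183023419 (plus strand, LAMC1).
LAMA3: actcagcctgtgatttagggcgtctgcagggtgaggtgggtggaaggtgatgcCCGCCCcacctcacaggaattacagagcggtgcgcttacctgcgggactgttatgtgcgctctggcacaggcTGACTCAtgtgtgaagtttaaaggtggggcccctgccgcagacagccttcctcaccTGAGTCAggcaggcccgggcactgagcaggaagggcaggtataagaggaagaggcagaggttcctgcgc
LAMB3: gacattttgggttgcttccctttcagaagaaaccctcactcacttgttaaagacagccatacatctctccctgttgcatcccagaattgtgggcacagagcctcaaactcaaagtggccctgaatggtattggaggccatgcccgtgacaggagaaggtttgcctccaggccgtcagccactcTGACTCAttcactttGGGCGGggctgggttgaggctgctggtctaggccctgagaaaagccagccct
LAMB2: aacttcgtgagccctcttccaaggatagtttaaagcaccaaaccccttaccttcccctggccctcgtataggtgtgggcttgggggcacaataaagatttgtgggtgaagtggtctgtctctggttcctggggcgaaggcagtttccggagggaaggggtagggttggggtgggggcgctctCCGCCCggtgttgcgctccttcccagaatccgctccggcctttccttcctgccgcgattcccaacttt
LAMC1: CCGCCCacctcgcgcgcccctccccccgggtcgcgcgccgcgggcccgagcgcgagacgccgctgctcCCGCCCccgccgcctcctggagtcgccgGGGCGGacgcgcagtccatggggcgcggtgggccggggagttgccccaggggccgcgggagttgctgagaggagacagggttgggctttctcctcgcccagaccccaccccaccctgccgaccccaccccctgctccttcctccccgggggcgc
The LAMA3 window held 2 AP-1 matches, the farther beginning 125 bases before the start, and the LAMB3 window held 1, beginning 67 bases before it. For LAMB3 the window printed was chosen among the 3 listed because it held an AP-1 match, and the others held none. An AP-1 match was found in 2 of the 33 windows of the 26 matched members, those printed for LAMA3 and LAMB3. It was found in 6.57% of all 35116 windows. A GC box was found in all 4 windows printed, 3 times in that of LAMC1. It was found in 17 of the 33 member windows and in 42.6% of all windows. These matches are letters in the reference, not measured sites.

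Among the chains of widespread basement membrane laminins, LAMB2 and LAMC1 separated the groups and LAMB1 did not. LAMB2, the beta chain of the glomerular filter, had 51.2 and 50.9 FPKM in PRDM16 libraries, against 60.2 and 76.8 FPKM in control vector libraries. The groups did not overlap, at 1.34-fold lower on the means and a log2 change of -0.41 (SE 0.14, unadjusted p = 0.0378, limma adjusted p = 0.689). Without control vector replicate 2 the change was -0.23. LAMC1, the common gamma chain (chromosome 1, 183023460 to 183145592), had 125 and 98.9 FPKM in PRDM16 libraries and 129.8 and 146 FPKM in control vector libraries, without overlap (log2 change -0.30, SE 0.15, limma adjusted p = 0.689). Without PRDM16 replicate 2, the lowest library of LAMC1, it was -0.13, and without control vector replicate 2 it was -0.22. LAMB1, the more abundant beta chain, had 109 and 99.2 FPKM in PRDM16 libraries and 96.7 and 118 FPKM in control vector libraries, so the groups overlapped (log2 change -0.04, 95% interval from -0.38 to 0.31).

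Of the other laminin alpha chains, LAMA5, a major alpha chain of kidney basement membranes, had 6.48 and 5.36 FPKM in PRDM16 libraries and 4.75 and 9.60 FPKM in control vector libraries. The control values bracketed the PRDM16 values, and the log2 change was -0.18 (SE 0.32). Its locus also names the microRNA MIR4758, and that of LAMB3 names MIR4260. LAMA4, an alpha chain of vessel and mesenchymal basement membranes, had 1.43 and 1.69 FPKM in PRDM16 libraries and 1.32 and 0.848 FPKM in control vector libraries. Both PRDM16 libraries were the higher ones, at 1.44-fold on the means, a log2 change of 0.31 (SE 0.19, limma adjusted p = 0.689). Without control vector replicate 2 the change of LAMA4 was 0.14. LAMA1, the embryonic alpha chain, was below 0.46 FPKM in every library and LAMB4 below 0.14 FPKM. The laminin alpha genes summed to 38.0 and 39.8 FPKM in PRDM16 libraries and 45.0 and 48.2 FPKM in control vector libraries, less than the beta genes (223 and 203 FPKM in PRDM16 libraries, 199 and 255 FPKM in control vector libraries). The plot of changes by member sets the 21 together.

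**Figure D4:**
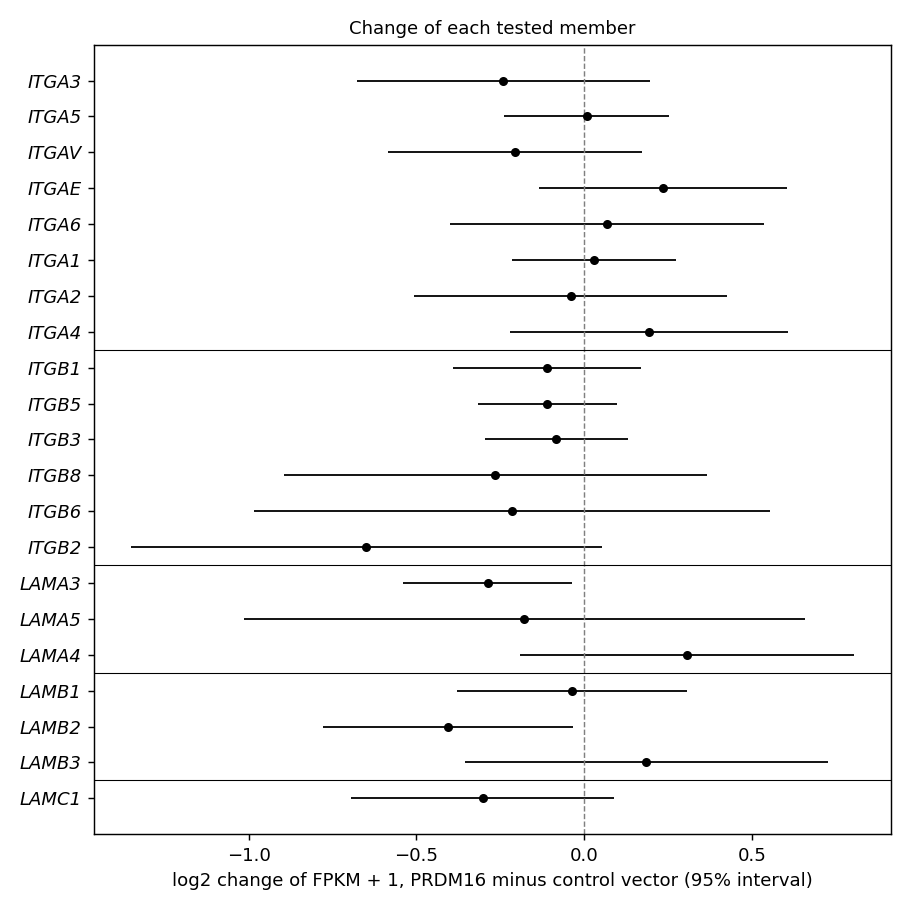
Log2 change of FPKM + 1 (PRDM16 minus control vector) with its 95% interval from limma for the 21 tested members, grouped as integrin alpha, integrin beta, laminin alpha, beta and gamma. The intervals of LAMA3 and LAMB2 lie below 0 before adjustment, and no member passed after it.

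Some members are neighbours on the genome. LAMB1 and LAMB4 lie 20292 bases apart on chromosome 7, at a mean of 106 FPKM for LAMB1 over the 4 libraries and under 0.14 FPKM for LAMB4 in each. ITGA1 and ITGA2 lie 30115 bases apart on chromosome 5, and neither separated the groups. Replicates of the members differed more than those of the median locus. The median absolute log2 difference between replicates was 0.18 in PRDM16 and 0.28 in control vector for the 21 members, against 0.10 and 0.19 for all loci.

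Most integrin ligand and basement membrane genes had a lower mean with PRDM16. The list held 37 genes found in the table, and 20 were tested at loci with a single name. None passed over all genes, while 17 had a lower and 3 a higher mean, at a median log2 change of -0.16. Both PRDM16 libraries lay below both control vector libraries for 13 of the 20 (65%, against 20.3% of all loci). They lay above them for 1 (5%, against 21.1% of all loci). HSPG2, which encodes the heparan sulfate proteoglycan perlecan, had 55.7 and 43.9 FPKM in PRDM16 libraries and 70.5 and 87.3 FPKM in control vector libraries, a log2 change of -0.66 (SE 0.17, limma adjusted p = 0.689). COL4A1 and COL4A2, the paired genes of the main type IV collagen, shared a direction: COL4A2 had 90.3 and 80.9 FPKM in PRDM16 libraries and 103 and 123 FPKM in control vector libraries, and COL4A1 had 42.5 and 38.1 FPKM in PRDM16 libraries and 48.0 and 53.1 FPKM in control vector libraries. TNC, a matrix glycoprotein that binds ITGA9 and ITGAV integrins, had 49.0 and 46.0 FPKM in PRDM16 libraries and 61.0 and 61.5 FPKM in control vector libraries. EDIL3, an RGD ligand of ITGAV integrins, had 57.5 and 50.5 FPKM in PRDM16 libraries and 64.1 and 69.3 FPKM in control vector libraries.

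The most abundant ligand gene, FN1 (fibronectin), had 1574 and 1466 FPKM in PRDM16 libraries and 1587 and 2176 FPKM in control vector libraries. Its 2 groups were separated by a small gap, with control vector replicate 2 far above the rest, and the log2 change of -0.29 (SE 0.17) was -0.06 without that library. CTGF, a matricellular target of YAP that binds integrins, differed the other way, with 31.0 and 28.5 FPKM in PRDM16 libraries and 23.7 and 21.9 FPKM in control vector libraries (log2 change 0.37, SE 0.10, limma adjusted p = 0.689). Without control vector replicate 2, 16 of the 20 genes were lower. The list was written with earlier results of these data known, in which matrix genes were lower, so its direction is not independent evidence.

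**Figure D5:**
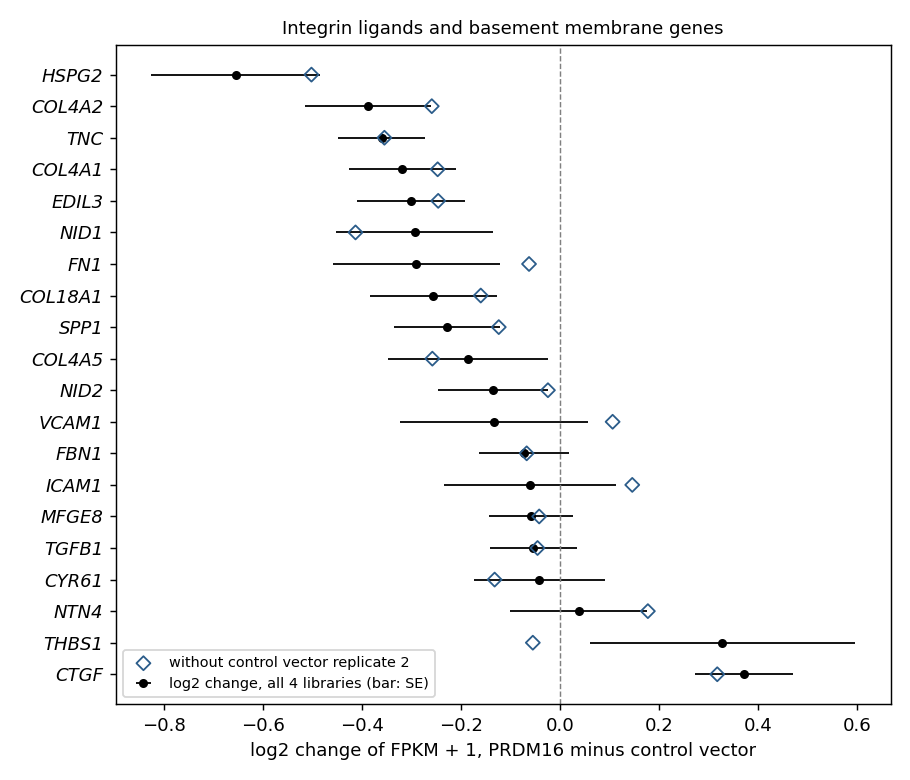
Log2 change of FPKM + 1 (PRDM16 minus control vector; filled points, bars are SE) for the 20 tested integrin ligand and basement membrane genes, with the change after leaving out control vector replicate 2 as open diamonds. HSPG2 has the lowest and CTGF the highest value, and FN1 is at -0.29, and at -0.06 without that library.

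Genes of the integrin adhesion complex, which links the cytoplasmic tails to actin, were mixed in direction. Of 35 tested single-name loci (TLN2 has 2), the mean was lower for 22 and higher for 13. None passed over all genes. Without overlap 8 lay below (22.9%, against 20.3% of all loci) and 4 above (11.4%, against 21.1% of all loci). The median log2 change was -0.04. ARHGEF7, an exchange factor that binds the GIT scaffolds at adhesions, had 11.5 and 10.3 FPKM in PRDM16 libraries and 14.0 and 14.5 FPKM in control vector libraries (unadjusted p = 0.0202, limma adjusted p = 0.689). TNS1, a tensin that binds integrin beta tails, had 8.25 and 8.34 FPKM in PRDM16 libraries and 10.2 and 12.7 FPKM in control vector libraries. LIMS2, a partner of ILK, had 2.41 and 2.65 FPKM in PRDM16 libraries and 3.20 and 4.66 FPKM in control vector libraries. NEDD9, a docking protein of focal adhesions, had 7.54 and 6.52 FPKM in PRDM16 libraries and 8.04 and 11.2 FPKM in control vector libraries. In these 4 genes both PRDM16 libraries were the lower ones. Without control vector replicate 2 the log2 change was -0.25 for LIMS2, against -0.47 with all libraries, -0.17 for NEDD9, against -0.39, and -0.27 for TNS1, against -0.41. The less abundant locus of TLN2, a talin that activates integrins, was higher in both PRDM16 libraries. It had 6.69 and 5.53 FPKM in PRDM16 libraries and 4.35 and 5.43 FPKM in control vector libraries (log2 change 0.27). The more abundant TLN2 locus overlapped between groups, at a log2 change of -0.11. Its values were 19.2 and 17.9 FPKM in PRDM16 libraries and 23.7 and 17.1 FPKM in control vector libraries. At the core of the complex, ILK had 128 and 131 FPKM in PRDM16 libraries and 131 and 130.2 FPKM in control vector libraries, and the kinase PTK2 had 117 and 111 FPKM in PRDM16 libraries and 115 and 116 FPKM in control vector libraries.

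Hemidesmosome and tetraspanin partners were split, with 6 lower and 7 higher of 13 tested and 3 without overlap in each direction (23.1% each, against 20.3% of all loci below and 21.1% above). PLAUR, the urokinase receptor that associates with integrins, had 79.7 and 77.4 FPKM in PRDM16 libraries and 59.7 and 59.4 FPKM in control vector libraries (log2 change 0.39, SE 0.08, unadjusted p = 0.00634, limma adjusted p = 0.689). CD82, a tetraspanin that restrains migration in several carcinomas, had 206 and 191 FPKM in PRDM16 libraries and 165 and 171 FPKM in control vector libraries. CD44, the hyaluronan receptor, had 558 and 537 FPKM in PRDM16 libraries and 490.4 and 405 FPKM in control vector libraries. These 3 genes were higher in both PRDM16 libraries, and the log2 change of CD44 was 0.16 without control vector replicate 2, against 0.30 with it. Lower in both were CD9, PLEC and CD47. CD9, a tetraspanin, had 0.999 and 0.852 FPKM in PRDM16 libraries and 1.22 and 1.84 FPKM in control vector libraries. PLEC, the hemidesmosome linker plectin, had 149.7 and 142 FPKM in PRDM16 libraries and 151 and 171 FPKM in control vector libraries. CD47, an integrin-associated protein, had 73.1 and 75.1 FPKM in PRDM16 libraries and 78.7 and 76.3 FPKM in control vector libraries. CD151, the tetraspanin bound most tightly to ITGA3 and ITGA6 pairs, had 425 and 437 FPKM in PRDM16 libraries and 436 and 402 FPKM in control vector libraries, which overlap.

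The remaining lists showed no member past the threshold. Other laminin receptors had 3 lower and 2 higher means among 5 tested, with SDC2, a syndecan, at 183 and 164 FPKM in PRDM16 libraries and 233 and 198 FPKM in control vector libraries. DAG1, which encodes dystroglycan, had 31.8 and 31.2 FPKM in PRDM16 libraries and 31.3 and 29.4 FPKM in control vector libraries. Integrin trafficking genes had 6 lower and 5 higher means among 11 tested, with RAB11FIP1, a recycling adaptor of ITGA5, at 5.63 and 4.66 FPKM in PRDM16 libraries and 6.41 and 6.12 FPKM in control vector libraries. FURIN, a protease that cleaves several integrin alpha precursors, had 27.6 and 26.2 FPKM in PRDM16 libraries and 24.7 and 22.04 FPKM in control vector libraries. Of the laminin secretion and processing list 3 genes were tested, all with a lower mean, and 1 was lower once control vector replicate 2 was left out.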

How the data were processed

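RNA-seq of 4 libraries of 786-O cells was analysed. The submitters' processing notes name TopHat2 2.1.0, Trim Galore, Cuffdiff, Cufflinks 2.2.1 and the build hg38. Annotation, filters, library scaling and strand handling: not given in the sources used here. FPKM was taken as the unit of the authors' deposited values, though the header names none, because of the tools and because each library holds fractional values with a total from 556213 to 574003. Depth is unknown, so no counting interval is given. Of 56753 loci, 54388 carry 1 gene name and 2365 several.

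The test was limma 3.58.1 (R 4.3.3) on all loci whose mean reached 1 FPKM, on log2(FPKM + 1), with a variance trend, a two-sided moderated test and Benjamini-Hochberg adjustment over all tested loci (threshold 0.05). Fold changes on this scale understate low genes. Each SE comes from limma's moderated variance, which draws on the trend over all tested loci as well as on the 2 libraries per group. A check on simulated data with normal noise set a limit only on how far the median estimated change lay from the true one. It set none on calls, so it does not bear on the p-values. Tables used Python 3.11.15, numpy 2.4.6 and pandas 2.3.3, plots matplotlib 3.10.9. Coordinates and exon overlaps are from GENCODE release 29 on GRCh38, which may differ from the authors' annotation.

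A gene that the symbol rule also matches is not reported here and enters no count of members. Members and lists were chosen with earlier results of these data known. Named genes were all tested members, the 3 highest under the filter, up to 6 genes per list by smallest p, and some others named after their values were seen (PTK2, ILK, CD47, CD151, DAG1, FN1, TGFB1, VCAM1 and low integrins). Alternatives were pseudocounts of 0.1 and 0.5, no filter or a minimum of 5, no variance trend, median-of-ratios scaling, quantile normalization, the replicate block, single-name loci, and leaving out each library. Count-based tools were not run, since the file holds no counts.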

Additional observations from a re-analysis of the deposited data

How the results depend on the processing

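None of the integrin and laminin genes described here was called under any alternative run. The 3 loci called over the table became 5 with a pseudocount of 0.1, 6 when no variance trend was used, 1 when every locus was tested and 16 to 39 with 1 library left out. With the replicate number as a block 5 loci were called, and no call of a member or list gene changed. The correlation of same-numbered deviations was -0.06, and the numbers are not stated to pair cultures. Without the filter, members under 1 FPKM are counted too, and 24 members (14 with it) had a lower mean and 10 (6) lay lower without overlap. Of all loci under 1 FPKM and above 0 in at least 1 library, 15.4% lay lower in this way, against 20.3% of the tested loci. With 1 library left out, where 3 libraries separate more easily, 6 to 14 members lay lower and 3 to 8 (2 with all libraries) lay higher without overlap. Of all loci 27.6% to 40.7% lay lower and 30.1% to 43.9% higher in those fits. The 14 lower members were found without control vector replicate 1, where 40.7% of all loci lay lower. The count of higher members without overlap was also 0 at a minimum of 5 FPKM and 4 after median-of-ratios scaling. The share of all loci in those fits is not given here, so these counts cannot be set against it. The factors dividing the libraries in that scaling were 1.005 and 0.997 for PRDM16 and 1.011 and 1.011 for control vector. Before scaling, PRDM16 replicate 1 lay just under control vector replicate 1 for ITGAE (40.5 against 40.6 FPKM) and ITGA1 (9.72 against 9.74 FPKM). Whether these genes account for the rise to 4 was not tested. The median log2 change of the members was from -0.14 to -0.04 with 1 library left out.

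Direction was the same in all 4 leave-one-out fits for 13 of 21 members, of which 9 were lower and 4 higher. The other 8 had changes on both sides of 0: ITGA2 (-0.23 to 0.15), ITGA5 (-0.0621 to 0.0760), ITGA6 (-0.13 to 0.27), ITGB6 (-0.63 to 0.20), ITGB8 (-0.60 to 0.0696), LAMA5 (-0.62 to 0.26), LAMB1 (-0.18 to 0.10) and LAMB3 (-0.0703 to 0.44). ITGA5 was also -0.0514 after quantile normalization. Without the filter, 27 genes of the ligand list were lower (17 with it). Of the laminin secretion and processing genes (3 lower), 1 to 3 were lower with 1 library left out and 5 with loci of several names included.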
